A study of Sus scrofa with 12 samples.

Results

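Piglets weaned for 7 days were compared with piglets still suckling, by the small RNA of their small intestine. The comparison takes 6 of the 12 libraries of the series, 3 labelled as feeding and 3 labelled as weaned for 7 days. Each library was read from its own list of names and counts, and the members described are the known microRNAs, of which 329 of the 337 listed in the series had a count in at least 1 of the 6 libraries. Of these, 295 had enough counts to be tested. All animals carry the breed label Big white, the tissue is labelled intestine cells, and the series as a whole asks how weaning affects gene expression. The feeding group was sampled after 21 days of age while still breast feeding. The other group had been weaned for 7 days after 21 days of age, and libraries from piglets weaned for 1 or 3 days enter the fits, where they share the estimate of spread, and help to place some levels. Nothing in the labels tells whether the libraries of a group are from separate animals, and the p-values therefore measure the spread among libraries, which may be technical. No age at sampling is given for the feeding piglets, so an effect of weaning and one of age cannot be told apart here.

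MicroRNAs are short RNAs cut from a hairpin precursor, whose 2 arms (5p and 3p) can each give a mature microRNA, and they lower the output of messenger RNAs that they pair with. In the gut, miR-192, miR-194 and miR-215 are typical of epithelial cells and are made from joint transcripts, while miR-143 and miR-145 are typical of smooth muscle. Weaning replaces milk with solid feed, and the period after it is known in pigs for changes in the villi and crypts that bear this epithelium. In bulk tissue, fewer cells of a type and less of an RNA per cell cannot be told apart.

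The libraries held 24670093 to 27634092 counts each, of which known microRNAs took 62.8%, 49.07% and 66.79% in the feeding group and 25.29%, 48.29% and 53.57% after 7 days (59.55% ± 9.3 and 42.38% ± 15, SD, n = 3). An exact permutation test of this share, two-sided, gave p = 0.2, and 3 libraries against 3 cannot give less than 0.1. Counts in exons, introns and intergenic sequence, which carry no name of a small RNA and did not enter the tests, took 27.86% ± 11 and 44.57% ± 15.7 (SD, n = 3; exact permutation p = 0.3). The library numbered 1 among those weaned for 7 days (7-day replicate 1) stood apart, with 62.17% of its counts in such sequence and the fewest known microRNA counts, at 6987325. Results that rest on it are therefore given with and without it. Its own values are described further below. The tissue label was checked on its markers. The 5 gut epithelium names held 26.4% to 42.9% of the known microRNA counts in the feeding libraries and 12.6% to 17.2% after 7 days, so the epithelial signature was present in all 6.

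Levels below are normalised CPM, meaning counts scaled to a common library total of named small RNAs after TMM scaling, a correction that aligns the bulk of small RNAs between libraries. Differences are log2 values from edgeR's quasi-likelihood test, weaned 7 days minus feeding, with their standard error (SE), and p-values carry a Benjamini-Hochberg adjustment with a threshold of 0.05. The test was fitted on all 2453 small RNAs with enough counts and, beside it, on the 295 known microRNAs alone. With all small RNAs, 1 of 2453 passed the threshold (0.0408%), the known microRNA miR-676-3p, and with 7-day replicate 1 left out it was again 1, of 2933 tested (0.0341%). Among known microRNAs alone 2 of 295 passed (0.678%), namely miR-676-3p, which was lower after 7 days, and miR-124a, which was higher. Without that replicate 7 of 295 passed (2.37%), and the further names were miR-215, miR-194a and miR-194b-5p, which were lower, and miR-204 and miR-195, which were higher.

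The clearest difference was in miR-676-3p, about which little can be said as background beyond its hairpin, which the RefSeq annotation of Sscrofa11.1 places at chrX:56083372-56083451 inside the span of EDA, the gene of the signalling ligand ectodysplasin A. Its level was 3205.5, 1697.1 and 1870.8 CPM in the feeding libraries and 241.1, 232.9 and 364.2 CPM after 7 days. All 3 weaned libraries lay far below the lowest feeding library, and replicate 1 was not apart from the other 2. The mean was 8.08-fold higher in the feeding group, at 2257.8 ± 825 against 279.4 ± 73.5 CPM (SD, n = 3). It fell by 3.01 on the log2 scale (SE 0.35, adjusted p = 0.00572), and among known microRNAs alone the log2 difference was -2.73 ± 0.30 (SE, adjusted p = 0.000349) with replicate 1 and -2.78 ± 0.32 (SE, adjusted p = 0.00135) without it. The call in the fit of all small RNAs was lost when 7-day replicate 2 was left out (adjusted p = 0.0827), with only the 6 libraries in the fit (0.317) and with counts in exons, introns and intergenic sequence in the library size (0.101).

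The weakly expressed other arm of the same hairpin, miR-676-5p, had 6.728, 2.691 and 5.838 CPM in the feeding libraries and 1.059, 0.6591 and 1.459 CPM after 7 days. Its groups did not overlap, and its log2 difference of -2.25 ± 0.78 (SE) did not pass the threshold (adjusted p = 0.470). The count of miR-676-3p over that of miR-676-5p was 476, 631 and 320 in the feeding libraries and 228, 353 and 250 after 7 days. The 3p arm was by far the more abundant in all 6 libraries, and the ratios of the groups overlapped.

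Days of weaning can be set beside this level. Mean miR-676-3p was 1125.7 ± 136 CPM after 1 day and 1099.8 ± 8.39 CPM after 3 days (SD, n = 3), between the feeding group and the group weaned for 7 days. Against the group weaned for 3 days, edgeR called none of the 2453 small RNAs (0.0%), with 181 at an unadjusted p under 0.05, 17 called by DESeq2 and 11 by limma with voom weights. Among known microRNAs alone 1 of 295 passed in that contrast (0.339%), miR-676-3p, with a log2 difference of -1.74 ± 0.28 (SE, adjusted p = 0.0189), so its level fell further between those groups. That call was lost when 3-day replicate 1, 3-day replicate 3, 7-day replicate 2 or 7-day replicate 3 was left out, and with only the 2 compared groups in the fit. Among known microRNAs alone DESeq2 called 13 in that contrast, limma with voom weights 3 and edgeR with library size as the one scaling 24.

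**Figure D1:**
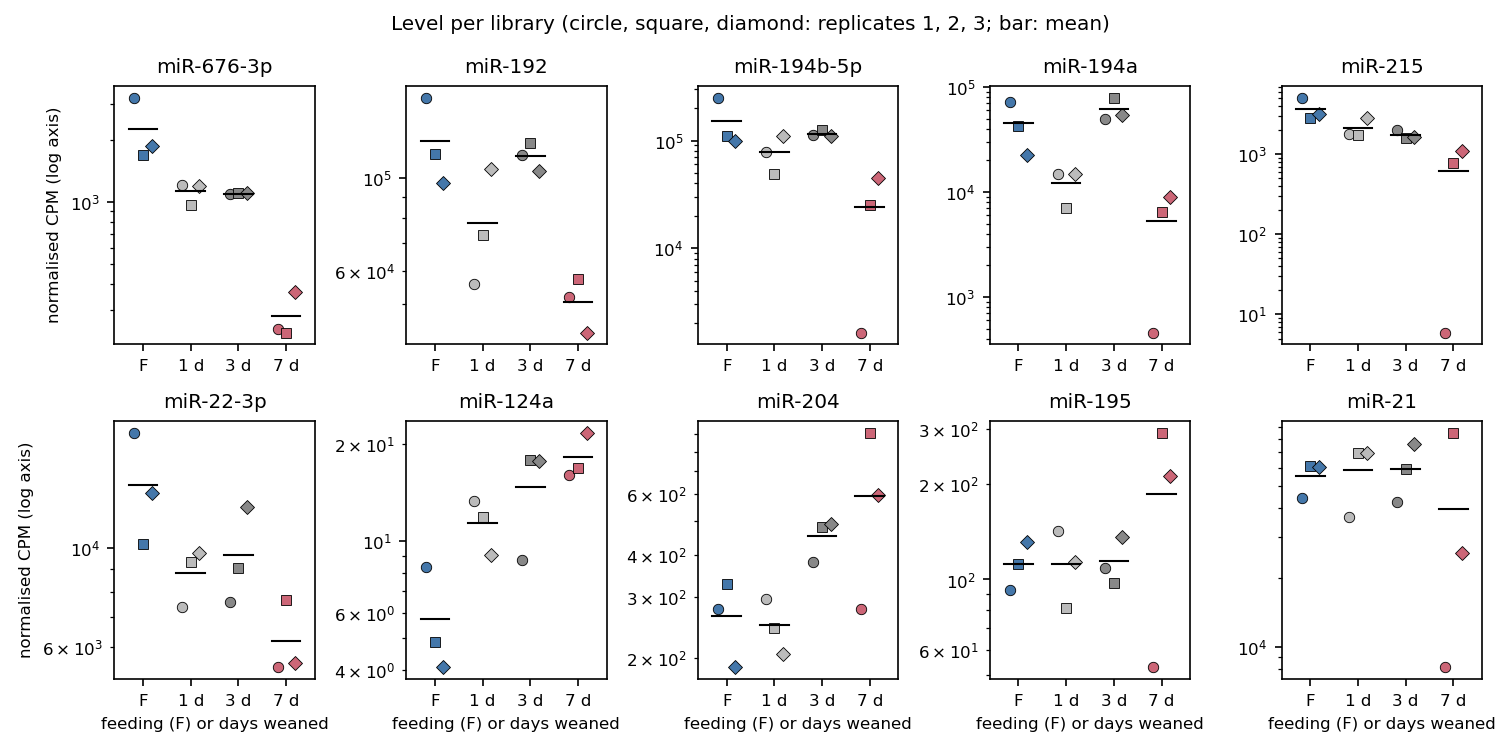
Normalised CPM (log axis, its range set per panel) of 10 known microRNAs in the 12 libraries, by feeding (F) or days weaned, with replicates as circle, square and diamond and the mean as a bar. For miR-676-3p the libraries weaned for 7 days lie at 232.9 to 364.2 CPM, below all others, while for miR-215, miR-194a and miR-194b-5p replicate 1 weaned for 7 days lies far below the other 2.

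MicroRNAs of the absorptive gut epithelium stood lower after 7 days, on both of their loci. All 5 tested members were lower in each of the 3 libraries weaned for 7 days than in any feeding library, as were 13.6% of the known microRNAs tested and 4.53% of all small RNAs tested. The median log2 difference of the 5 was -2.57, against -0.24 over all 295 known microRNAs and 0.32 over all 2453 small RNAs. Among known microRNAs alone it was -2.47 with replicate 1 and -1.85 without it, where the median of all known microRNAs was 0.00 and 0.03. In the edgeR fits above, none of the 5 passed the threshold with all libraries, and 3 of the 5 did among known microRNAs alone without replicate 1. Other settings called some of them with all libraries. Over all small RNAs, DESeq2 called miR-194b-5p (adjusted p = 0.0459), miR-192 (0.0144) and miR-194a (0.00736). There edgeR with no filter on low counts called every one of the 5 but miR-194b-3p. Among known microRNAs alone DESeq2 called miR-194b-5p and miR-194a.

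Of these, miR-192, which lies with miR-194a at chr2:7285466-7285746, was second in level in both groups (rank 3 after 7 days when 7-day replicate 1 was left out). It stood at 154795.7, 113678.0 and 97246.4 CPM in the feeding libraries and 52121.4, 57249.8 and 42821.7 CPM after 7 days. The groups did not overlap and replicate 1 lay between the other 2. Its log2 difference was -1.26 ± 0.28 (SE, adjusted p = 0.470) in the fit of all small RNAs and -1.16 ± 0.28 (SE, adjusted p = 0.0601) with known microRNAs alone and 7-day replicate 1 left out, so it did not pass in either. DESeq2 called it over all small RNAs, as did edgeR when no filter on low counts was used.

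Its partner miR-194a had 71789.6, 42234.4 and 22239.7 CPM in the feeding libraries and 458.9, 6503.6 and 8991.9 CPM after 7 days. Every weaned library was lower than every feeding one, and replicate 1 was far lower than the other 2. The log2 difference was -3.09 ± 0.83 (SE, adjusted p = 0.470) with all libraries. Among known microRNAs alone without replicate 1 it fell by 2.42 on the log2 scale (SE 0.48, adjusted p = 0.0289).

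The second locus of this group, chr10:9704606-9704987 in the same annotation, holds miR-215 and miR-194b within the span of IARS2, the gene of the mitochondrial isoleucyl-tRNA synthetase. The most abundant microRNA of the feeding group, miR-194b-5p, had 249865.1, 111364.1 and 98376.9 CPM there and 1647.7, 25160.0 and 45366.9 CPM after 7 days. It took 15.6% of the known microRNA counts on average in the feeding group and 3.96% after 7 days, or 5.73% after 7 days with replicate 1 left out, the largest move of a share among known microRNAs in both cases. Its mean level ranked 1 in the feeding group and 8 after 7 days, or 5 with replicate 1 left out. Without replicate 1 it fell by 1.97 on the log2 scale among known microRNAs alone (SE 0.44, adjusted p = 0.0473).

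For miR-215, close in sequence to miR-192, the levels were 5097.6, 2863.9 and 3228.3 CPM in the feeding libraries and 5.941, 779.3 and 1095.2 CPM after 7 days. The groups were again separate, with replicate 1 more than 100-fold below the other weaned libraries. Without replicate 1 it fell by 1.85 on the log2 scale among known microRNAs alone (SE 0.33, adjusted p = 0.0289). The rare arm miR-194b-3p had 13.93, 10.44 and 6.46 CPM against 4.0, 1.798 and 3.418 CPM, a log2 difference of -1.74 ± 0.61 (SE, adjusted p = 0.470), and in this arm replicate 1 was the highest of the weaned libraries.

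Reads of near-identical names such as miR-194a and miR-194b can be split between them by a rule not given in the sources used here. The sum of miR-194a and miR-194b-5p, a measure chosen after seeing the data, was 321654.7, 153598.5 and 120616.6 CPM in the feeding libraries and 2106.6, 31663.6 and 54358.8 CPM after 7 days. The groups stayed apart in the sum, with 7-day replicate 1 again far below the rest. After 1 and 3 days of weaning, mean miR-194a was 12198.2 ± 4530 and 60967.3 ± 15700 CPM, and mean miR-192 was 77970.5 ± 24900 and 112636.3 ± 8630 CPM (SD, n = 3). These 2 levels were thus not ordered by days of weaning.

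Another epithelial microRNA, miR-429 of the miR-200 family, which helps to keep cells epithelial, had 5426.1, 7728.1 and 5673.5 CPM in the feeding libraries and 1354.1, 4525.1 and 3413.5 CPM after 7 days. It was the one member of that family tested. Its groups did not overlap, and its log2 difference of -1.02 ± 0.43 (SE) did not pass (adjusted p = 0.470).

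**Figure D2:**
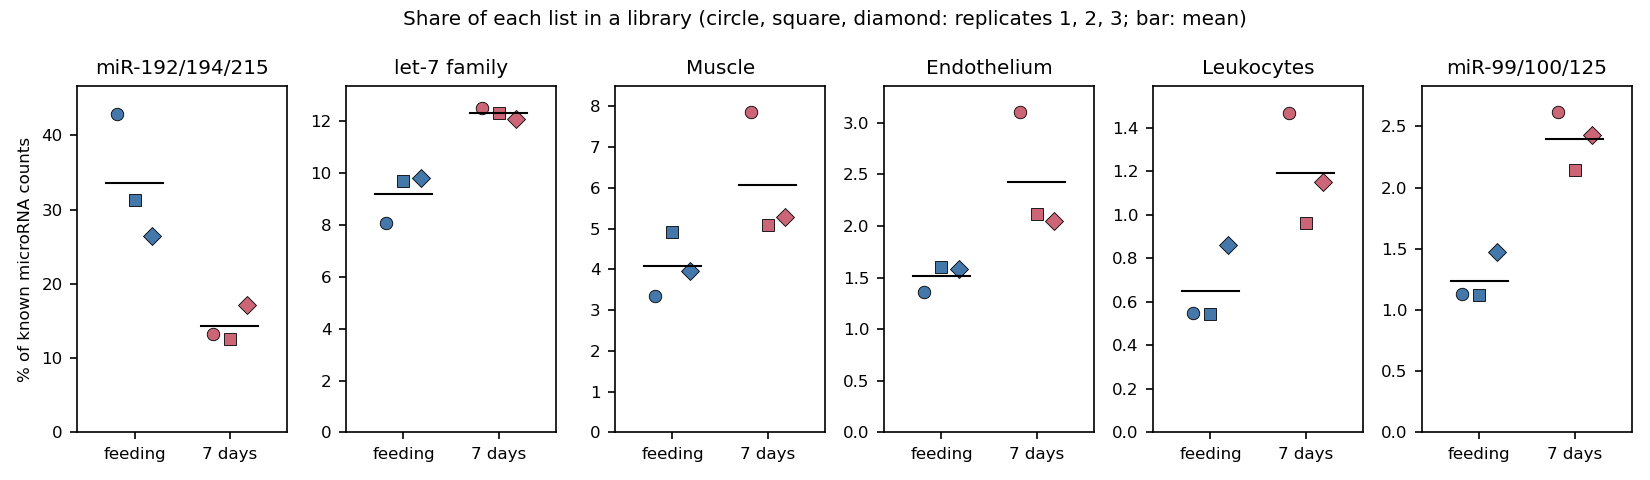
Percent of a library's known microRNA counts that fell on 6 lists, in feeding libraries and libraries weaned for 7 days, with replicates as circle, square and diamond and the mean as a bar. The miR-192, miR-194 and miR-215 share is lower in all 3 weaned libraries (12.6% to 17.2% against 26.4% to 42.9%), and the shares of the other 5 lists shown are higher in all 3. Lists that are not shown did not all rise. The share of the neuronal list, for example, overlapped between groups, and that of the arms of miR-676 was lower in all 3.

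The shares of a library add up to the whole, so a lower epithelial share leaves a higher share for the sum of all other names. It does not set the direction of any single list. For example, the list of the miR-148 family and miR-22 had a mean share of 1.53% in the feeding group and 1.18% after 7 days. The let-7 family, linked to differentiated cells, took 8.07%, 9.69% and 9.80% of known microRNA counts in the feeding libraries and 12.5%, 12.3% and 12.1% after 7 days. As a share of the counts outside the gut epithelium list, a denominator chosen after seeing the data, it took 14.1%, 14.1% and 13.3% against 14.5%, 14% and 14.7%, and the groups overlapped. Muscle microRNAs took 3.35%, 4.93% and 3.95% against 7.87%, 5.08% and 5.28% of all known counts. Outside the gut epithelium list they took 5.86%, 7.18% and 5.36% against 9.06%, 5.81% and 6.37%, again with overlap. For leukocyte microRNAs the shares outside that list were 0.957%, 0.794% and 1.17% against 1.70%, 1.10% and 1.39%, which also overlapped.

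Outside that list the groups stayed apart, with higher shares after 7 days, for endothelium, red blood cells and the let-7 cluster partners miR-99, miR-100 and miR-125. Endothelial miR-126 took 2.39%, 2.33% and 2.14% against 3.58%, 2.42% and 2.48%, where replicates 2 and 3 lay just above the feeding libraries. Red blood cell microRNAs took 0.359%, 0.227% and 0.461% against 0.790%, 0.583% and 0.504%. The miR-99, miR-100 and miR-125 names took 1.98%, 1.63% and 1.99% against 3.02%, 2.45% and 2.93%. Lower shares without overlap were found outside it for miR-429 (0.846%, 1.30% and 0.919% against 0.380%, 0.725% and 0.722%), for the list of the miR-148 family and miR-22 (2.94%, 1.81% and 2.26% against 1.57%, 1.29% and 1.27%) and for the arms of miR-676. Apart from miR-676-3p, no member of these 6 lists passed in the edgeR fits above, while among known microRNAs alone DESeq2 called miR-125a, miR-144, miR-22-5p and miR-676-5p. These 6 lists were picked because their groups did not overlap, after the shares of all lists were seen. Outside the gut epithelium list, the groups overlapped for every remaining list. How often the groups separate for unrelated names on that scale was not counted, so separation alone does not single out these lists. The part of other cell types in the lower epithelial share was not tested.

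Beyond the epithelium, both arms of miR-22, a microRNA known from muscle and heart and abundant in milk, were lower after 7 days. The 3p arm had 18186.2, 10207.3 and 13292.4 CPM in the feeding libraries and 5409.5, 7656.2 and 5530.5 CPM after 7 days. The 5p arm had 383.0, 203.6 and 237.5 CPM against 26.82, 105.8 and 97.28 CPM. Neither arm overlapped between groups, and neither passed edgeR's threshold with all small RNAs or known microRNAs alone, with or without replicate 1, the closest being miR-22-5p among known microRNAs alone without replicate 1 (log2 difference -1.30 ± 0.30, SE, adjusted p = 0.0511). DESeq2 called both over all small RNAs. The list of 7 names of the miR-148 family and miR-22, chosen as abundant in milk, had all 7 lower in the fit of all small RNAs but 5 lower and 2 higher among known microRNAs alone.

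On the higher side, miR-124a, a neuronal microRNA, was present at a low level of 8.343, 4.858 and 4.068 CPM in the feeding libraries and 16.12, 16.84 and 21.76 CPM after 7 days. All weaned libraries were above all feeding libraries. It rose among known microRNAs alone, by 1.94 ± 0.36 on the log2 scale (SE, adjusted p = 0.0259), and by 1.88 ± 0.38 without replicate 1 (SE, adjusted p = 0.0289), while over all small RNAs the difference of 1.66 ± 0.51 (SE) did not pass (adjusted p = 0.470). DESeq2 called it over all small RNAs (log2 difference 1.63, adjusted p = 0.0245). The edgeR call among known microRNAs alone was lost when feeding replicate 2, feeding replicate 3 or 7-day replicate 3 was left out. It was also lost with only the 6 libraries in the fit. Mean levels were 11.44 ± 2.15 CPM after 1 day and 14.8 ± 5.23 CPM after 3 days (SD, n = 3). Of the 14 tested names of the neuronal list, 8 were higher and 6 lower. In edgeR's fit of known microRNAs alone, with or without 7-day replicate 1, miR-124a was the one called. Among known microRNAs alone DESeq2 also called miR-212 of this list, and edgeR without feeding replicate 2 called miR-9-2. For miR-9, another neuronal microRNA, the levels were 46.49, 57.63 and 75.85 CPM against 90.06, 64.47 and 41.51 CPM, with overlap.

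For miR-204, which is encoded in the TRPM3 gene at chr1:224065494-224065602, the levels were 277.2, 328.5 and 187.4 CPM in the feeding libraries and 277.8, 909.0 and 595.8 CPM after 7 days. Replicates 2 and 3 were above all feeding libraries and replicate 1 lay among them. It rose by 1.62 ± 0.31 on the log2 scale among known microRNAs alone without replicate 1 (SE, adjusted p = 0.0289). With replicate 1 it did not pass in that edgeR fit (1.35 ± 0.34, SE, adjusted p = 0.120). DESeq2, and edgeR with library size as the one scaling, called it among known microRNAs alone with all libraries. A like pattern of levels was seen for miR-195, of the miR-15/16 family known for restraining the cell cycle. Its levels were 92.78, 112.2 and 131.6 CPM against 52.71, 291.8 and 213.2 CPM, and replicate 1 was the lowest of the 6. It rose by 1.29 ± 0.29 among known microRNAs alone without replicate 1 (SE, adjusted p = 0.0473), and with it the difference was 0.89 ± 0.42 (SE, adjusted p = 0.427). Its close neighbour miR-497, at chr12:52422039-52422408 with it, had 1209.8, 1133.9 and 1129.3 CPM against 1027.8, 1246.3 and 1058.9 CPM, with overlap.

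**Figure D3:**
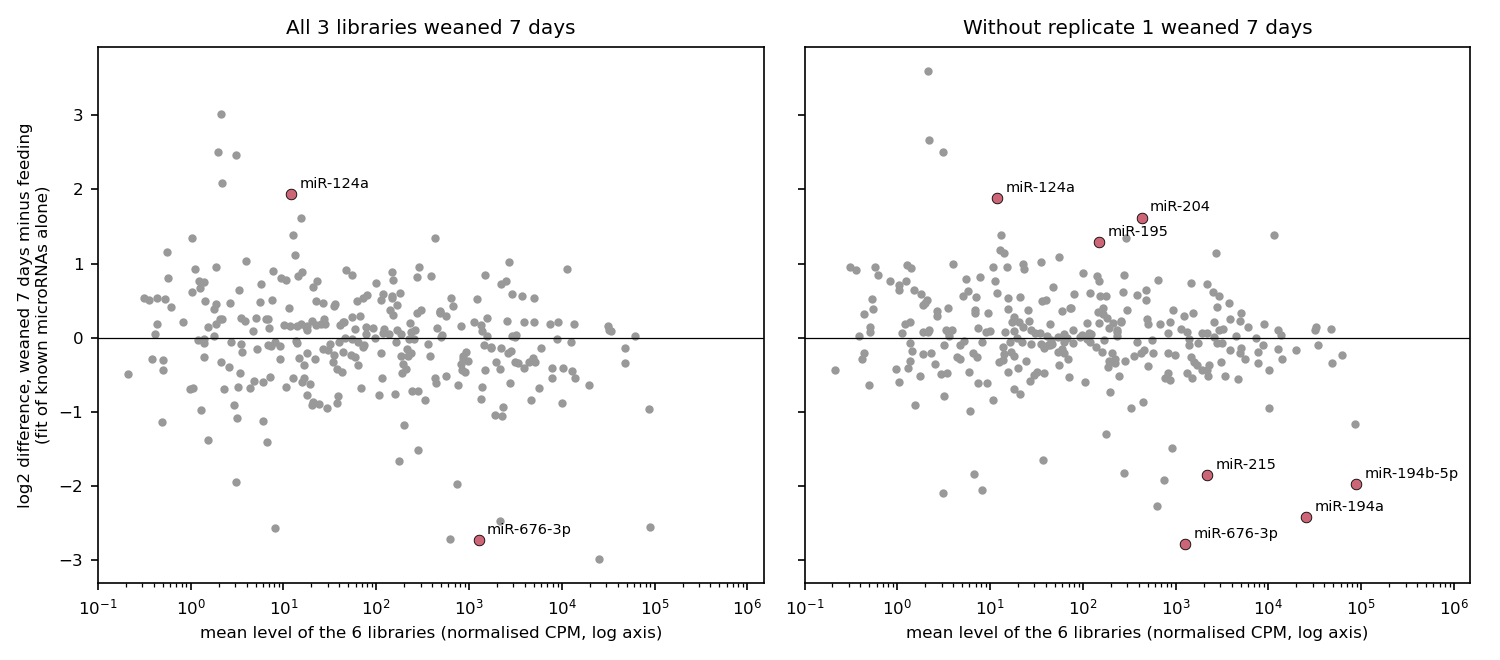
Log2 difference, weaned 7 days minus feeding, from the fit of known microRNAs alone, against the mean level of the 6 libraries (normalised CPM, log axis), with and without replicate 1 weaned for 7 days. Each point is 1 of 295 known microRNAs, and named points passed an adjusted p of 0.05, which 2 did with that library and 7 without it.

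Several rarer microRNAs were among the 10 of smallest p on the higher side without passing in edgeR. Of those given here, DESeq2 called miR-212 and miR-144 among known microRNAs alone. For miR-212, which shares a cluster on chromosome 12 with miR-132 and is known from neurons, the levels were 0.6055, 1.510 and 1.101 CPM in the feeding libraries and 3.765, 8.928 and 2.542 CPM after 7 days, with no overlap. For miR-132 they lay between 10.04 and 12.15 CPM in the feeding libraries and were 7.118, 27.14 and 17.67 CPM after 7 days, with replicate 1 the lowest. For the erythroid miR-144 they were 0.4710, 0.3939 and 0.6221 CPM against 0.2353, 1.198 and 9.794 CPM, so its log2 difference of 2.90 ± 1.37 (SE, adjusted p = 0.470) leaned on replicate 3. Its cluster partner miR-451, far more abundant in red blood cells, had 2270.7, 1328.6 and 2815.5 CPM against 2804.8, 3614.7 and 2337.2 CPM, with overlap. For miR-224 the levels were 0.9420, 0.5908 and 0.8614 CPM against 7.529, 0.6591 and 1.334 CPM, and among known microRNAs alone the log2 difference was 2.50 with replicate 1 and 0.47 without it.

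The remaining names of smallest p on the higher side were mostly of middle level. For miR-125a they were 2083.1, 1659.6 and 1806.4 CPM in the feeding libraries and 2071.6, 3236.6 and 2357.6 CPM after 7 days. For miR-328, 250.3, 194.8 and 226.8 CPM stood against 254.1, 368.1 and 366.6 CPM, with the lowest weaned library just above the highest feeding one. For miR-1307, 1214.5, 1070.0 and 1284.5 CPM stood against 1621.9, 2300.5 and 1345.3 CPM, also without overlap. For the rarer miR-935, 10.56, 8.665 and 5.312 CPM stood against 18, 23.85 and 10.38 CPM, where the lowest weaned library lay just below the highest feeding one. None of these names passed in the edgeR fits above. Among known microRNAs alone, edgeR with library size as the one scaling called miR-125a, miR-328 and miR-1307. The median of all known microRNAs was 0.48 under that scaling. DESeq2 called miR-125a and miR-328 among known microRNAs alone. On the lower side, miR-874 had 900.6, 139.6 and 274.1 CPM against 139.6, 94.08 and 127.4 CPM, and its difference leaned on replicate 1 of the feeding group. For let-7g, 13879.4, 11885.8 and 11888.0 CPM stood against 6683.2, 9272.3 and 7753.0 CPM, with no overlap and a log2 difference of -0.67 ± 0.23 (SE, adjusted p = 0.470). That difference depended on the scaling. It was -0.40 among known microRNAs alone, and -0.06 over all small RNAs with library size as the one scaling.

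Not overlapping is a count that can be set against the whole table. Of the 295 known microRNAs, 40 (13.6%) were lower in every library weaned for 7 days than in every feeding library, where 4.53% of all 2453 small RNAs were, and 7 (2.37%) were higher in every one, where 8.68% of all were. Without replicate 1, 46 (15.6%) were lower against 5.58% of all, and 26 (8.81%) higher against 16.9% of all. When known microRNAs were scaled among themselves, 21 (7.12%) were lower and 17 (5.76%) higher. The lean toward lower levels therefore depended on what the known microRNAs were scaled to. In the fit of all small RNAs 209 were lower and 86 higher, in the fit of known microRNAs alone 147 and 148, and with library size as the one scaling 84 and 211, for medians of -0.24, 0.00 and 0.34. Differences of single names of about that size have no settled direction.

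**Figure D4:**
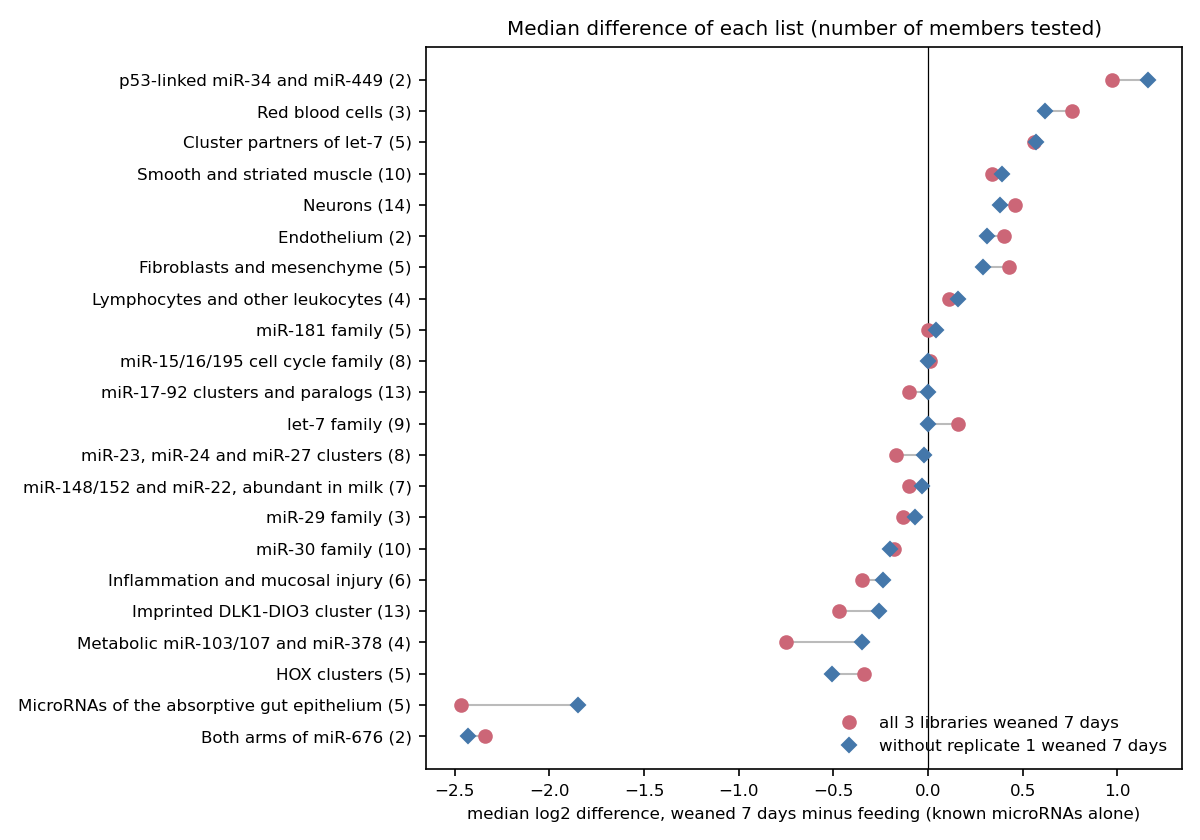
Median log2 difference of each list with at least 2 tested members, weaned 7 days minus feeding, from the fit of known microRNAs alone, with all libraries (circles) and without replicate 1 weaned for 7 days (diamonds). The gut epithelium list (-2.47 and -1.85) and the arms of miR-676 lie far below the other lists, whose medians lie between -0.75 and 1.16.

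Of the other lists in the fit of known microRNAs alone, the miR-34 and miR-449 list had a median of 0.97 over 2 members, red blood cells 0.76 over 3, and miR-103, miR-107 and miR-378 -0.75 over 4. In the fit of known microRNAs alone, the miR-17-92 clusters, known for promoting proliferation, had 7 members lower and 6 higher of 13, with a median of -0.10. The miR-15/16 family had 3 lower and 5 higher of 8, with a median of 0.01. The miR-30 family had 7 lower and 3 higher of 10, with a median of -0.18. The DLK1-DIO3 cluster, an imprinted microRNA cluster, had 12 lower and 1 higher of 13, with a median of -0.47, which became 9 and 4 and -0.26 without replicate 1. In the edgeR fits above no member of these lists was called except miR-195 without replicate 1. DESeq2 called miR-144 of the red blood cell list among known microRNAs alone.

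The most abundant members of these lists can be placed in the same fit, where a log2 difference near 0 means a level that moved with the median. In the HOX clusters miR-10a-5p was at 0.21, miR-10b at -0.34 and miR-196a at -1.97, the last with 213.2, 1710.1 and 1726.9 CPM in the feeding libraries and 189.6, 526.3 and 75.64 CPM after 7 days. That microRNA overlapped between groups. Over all small RNAs, edgeR with no filter on low counts called miR-196a and miR-196b-5p, both lower. Of the metabolic names, miR-103 was at -0.82, miR-378 at -0.06 and miR-378b-3p at -1.04, and without replicate 1 they were at -0.48, -0.15 and -0.43. For miR-34a, a target of p53, the difference was -0.14, and for the rare miR-34c it was 2.08 with 8.502 CPM in replicate 3 as its highest level.

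Among cell type markers in that fit, leukocyte miR-150 was at 0.53, miR-142-3p at 0.08 and miR-342 at -0.24. Endothelial miR-126-3p was at 0.19 and miR-126-5p at 0.61, and the fibroblast names miR-199a-3p and miR-199a-5p were at -0.33 and 0.52. Muscle miR-143-3p was at 0.09 and miR-133a-3p at 0.44, the red blood cell miR-486 at 0.19, and neuronal miR-128 and miR-129b at -0.44 and -0.02. Of the families, the miR-29 names ran from -0.42 for miR-29c to 0.16 for miR-29b with miR-29a at -0.13, and miR-30a-5p, miR-30b-5p and miR-30d were at -0.66, -0.28 and -0.27. For miR-181a, miR-181b and miR-181c the values were -0.63, -0.40 and 0.10, for miR-23a and miR-27b-3p -0.41 and -0.67, and for miR-16 and miR-15b -0.54 and -1.05. In the miR-17-92 list miR-92a was at 0.10, miR-92b-3p at -0.10 and miR-363 at -0.93, in the DLK1-DIO3 list miR-127, miR-323 and miR-411 were at -0.05, -0.54 and -0.11, and miR-99a, miR-99b and miR-100 were at 0.59, 0.56 and 0.02. None of these passed the threshold, with or without replicate 1.

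Of the most abundant microRNAs outside the epithelial list, 4 are given here. For miR-191 the levels were 76452.8, 60024.8 and 68749.1 CPM in the feeding libraries and 60634.7, 56148.8 and 50215.3 CPM after 7 days. For miR-26a they were 68198.5, 50305.8 and 48173.4 CPM against 42334.5, 41640.3 and 38555.4 CPM, without overlap. For miR-92a they were 36480.2, 31473.7 and 33881.0 CPM against 22896.6, 32975.2 and 35608.1 CPM, and for let-7a 36008.6, 32886.0 and 30183.5 CPM against 26292.1, 37104.7 and 28323.8 CPM. Scaled among known microRNAs alone, these 4 had log2 differences of 0.02, -0.14, 0.10 and 0.16, and none passed.

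MicroRNAs of inflammation and mucosal injury had 4 lower and 2 higher of 6 in that fit, and the spread within the group weaned for 7 days was wide for their most abundant member. For miR-21, often raised in inflamed tissue, the levels were 44346.7, 61259.0 and 60382.6 CPM in the feeding libraries and 8133.1, 85436.6 and 25682.6 CPM after 7 days. The 3 weaned libraries thus held both the lowest and the highest of the 6. Similar spreads were seen for miR-24-3p, with 3255.2, 29968.9 and 10435.6 CPM after 7 days against 6333.9, 10958.6 and 7756.0 CPM, and for miR-7, an endocrine cell microRNA, with 2174.6, 6333.1 and 1716.2 CPM against 1450.2, 2261.6 and 2203.2 CPM. None of these 3 passed the threshold, nor did miR-146a-5p (log2 difference 0.01 among known microRNAs alone) or miR-31 (-0.42).

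The direction of each arm was counted in hairpins with both arms measured. Both arms were tested for 58 hairpins, of which 32 had both arms lower, 3 both higher and 23 arms of opposite direction, and in 54 the arms differed by less than 1 log2 unit. Among 25 groups of hairpins within 10000 bp of each other, all members were lower in 8 and higher in 3. Those 8 included both epithelial loci, and the 3 were miR-132 with miR-212, miR-451 with miR-144, and miR-125a with let-7e and miR-99b. These counts are from the fit of all small RNAs, whose median for known microRNAs was itself below 0. In that fit 209 of the 295 known microRNAs were lower and 86 higher. Unrelated pairs were not counted, so these counts do not show that arms or neighbours moved together.

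7-day replicate 1 differed from the other 5 libraries name by name and not only in its share of known microRNAs. In it 47 of 295 known microRNAs were more than 4-fold below the feeding median, against 10 and 5 in replicates 2 and 3 and 4 to 5 in the feeding libraries, at log2 of CPM plus 1. There were 39 known microRNAs more than 4-fold below every other of the 6 libraries and 1, miR-224, more than 4-fold above. These names included miR-215, miR-194a and miR-194b-5p, so their levels in this library are given apart above.

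Names known from quite different cells were among the 39. For let-7c it had 981.8 CPM, where the other 5 libraries had 13290.8 to 16476.1 CPM. For miR-20a it had 1.059 CPM, where the others had 186.1 to 280.7 CPM, yet for miR-17-5p, of the same cluster, it had 636.9 CPM and the others 424.1 to 703.6 CPM. For muscle miR-145-5p it had 60.71 CPM against 886.6 to 1566.6 CPM, while miR-143-3p, of the same cluster, had 32083.2 CPM against 28154.9 to 41286.6 CPM. The partner miR-194b-3p was not low, and the count of miR-194b-5p over miR-194b-3p was 412 in this library and 10700 to 17900 in the other 5. The low values thus parted neighbours and arms of 1 precursor in this library.

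Sums over names of the same family, also chosen after seeing the data, do not depend on how reads are split between the names summed. Sequences of these names were not compared, and reads shared with names outside a sum are not covered. For miR-199a-3p with miR-199b-3p the sum was 2010.5 CPM in replicate 1 and 5364.0 to 7738.8 CPM in the other 5, although miR-199b-3p alone was at 2.059 CPM against 975.9 to 6791.9 CPM. For let-7a with let-7c it was 27273.9 CPM against 41614.7 to 53580.8 CPM. In both pairs the partner name stood closer to the other libraries than the sum did, with let-7a at 26292.1 CPM against 28323.8 to 37104.7 CPM. The sum stayed far below the other 5 libraries for miR-181a with miR-181b, at 4429.9 CPM against 23291.8 to 33925.1 CPM, and for miR-15a with miR-15b, at 698.1 CPM against 2061.9 to 4502.3 CPM, as it did for the miR-194 names above. For miR-378 with miR-378b-3p the sum of 9931.3 CPM lay within the range of the others, 9195.5 to 18903.8 CPM. For miR-133a-3p with miR-133b the sum of 151.5 CPM lay just below the others, 171.8 to 353.7 CPM. There miR-133b alone was at 0.8235 CPM against 49.1 to 101.8 CPM.

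**Figure D5:**
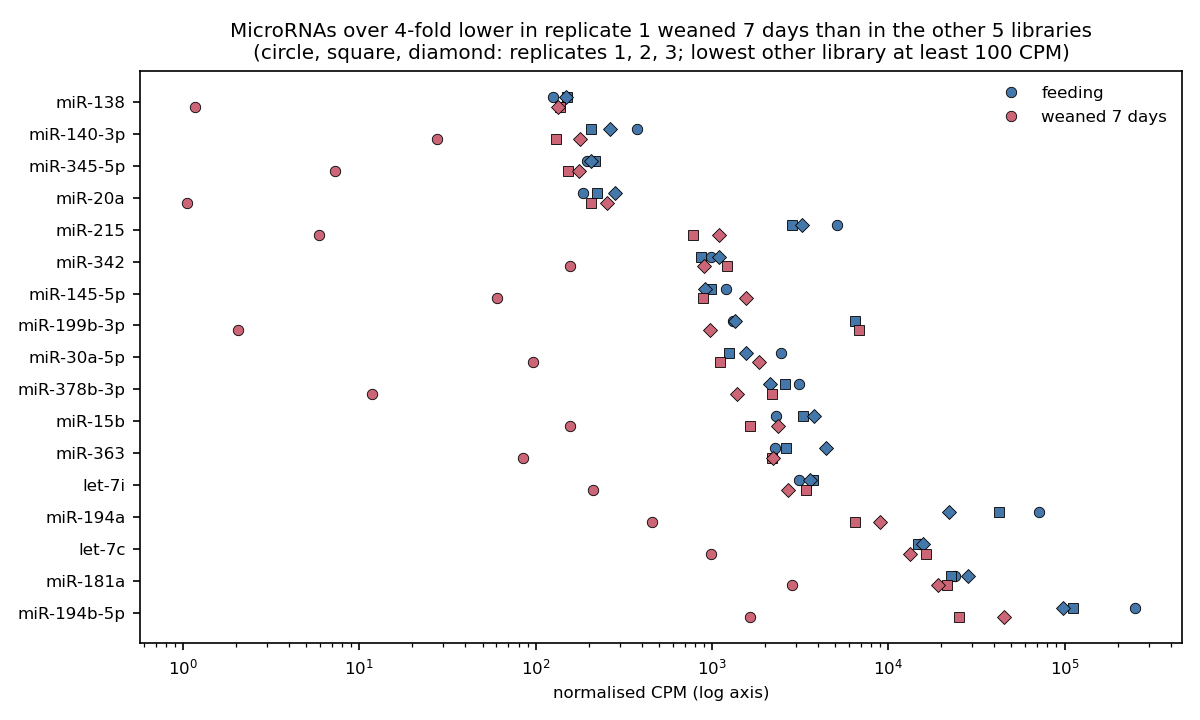
Normalised CPM (log axis) of the 17 known microRNAs that were more than 4-fold lower in replicate 1 weaned for 7 days than in each of the other 5 libraries and had at least 100 CPM in all of those. Replicate 1 weaned for 7 days is the lone circle at the left of each row, for example at 1.059 CPM for miR-20a.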

How the data were processed

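Small RNA counts of 12 libraries were read from a deposited table in which, per the file headers, each library has its own list of names with a count and a TPM value. The counts are whole numbers as deposited, and the deposited TPM equals counts scaled to the library's own total within 0.01, with no length term, so the counts were used and the TPM was not. Genome build Sscrofa11.1 is per the submitters' processing notes. For the aligner, the counter and the treatment of a read that matches more than 1 name, the tool or rule was not given in the sources used here. A name missing from a list was entered as 0, the counts of 8 repeated names were summed, and the 3 totals for exons, introns and intergenic sequence stayed out of library sizes and tests.

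Names with enough counts (filterByExpr, minimum count 10, minimum total 15) were tested two-sided with edgeR 4.0.16 in R 4.3.3, with TMM factors, 1 mean for each of the 4 groups in a model of the 12 libraries, and a Benjamini-Hochberg adjustment over all names tested, at a threshold of 0.05. The main fit holds all small RNAs, and a second fit the known microRNAs alone, each with and without replicate 1 of the libraries weaned for 7 days. DESeq2 1.42.0, limma 3.58.1 with voom weights, other scalings and filters, and leaving out each replicate were alternatives. edgeR's biological coefficient of variation came to 129% in the main fit and 45.81% in the second. Shares were compared by exact permutation. Intervals are not given for counts, since PCR copies are not told apart. The procedure was also run on simulated counts, whose spread was set well below that of the main fit, so the run does not cover that fit.

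The members and the 24 lists of microRNAs were chosen with earlier results of these data known. The rule for names takes those past the threshold in these fits, the 10 of smallest p in each direction, the 10 most abundant, the other arm of each called hairpin, and the 3 most abundant of each list, 79 names in all. A search for names with at least 10 counts in every library of 1 group and under 3 in the other found 0. Names given for 7-day replicate 1 and for the clusters were chosen after their values were seen. Coordinates are those of precursors in RefSeq's Sscrofa11.1 annotation, where 275 of the 295 tested names had a position. Sequences are not printed.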

Additional observations from a re-analysis of the deposited data

Results flagged for a closer look

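Predicted piRNAs were part of the fit of all small RNAs, but their share of a library was not compared above. They took 1.08% ± 0.146 of the counts in the libraries weaned for 7 days and 0.5237% ± 0.0199 in the feeding libraries (SD, n = 3). The single values were 1.191%, 1.133% and 0.915% against 0.502%, 0.541% and 0.528%, so each library weaned for 7 days was above each feeding library, and the exact permutation p of 0.1 is the smallest that 3 against 3 can give. These libraries also had more counts in exons, introns and intergenic sequence on average, and the part of those in the difference was not tested.

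The level of miR-676-3p differed between the groups weaned for 7 and for 3 days, with a log2 difference of -1.74 ± 0.28 among known microRNAs alone (SE, edgeR, adjusted p = 0.0189), while in the fit of all small RNAs the same difference was -1.98 and did not pass (adjusted p = 0.166). All 3 libraries weaned for 7 days were lower than all 3 weaned for 3 days.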

How the results depend on the processing

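Over all small RNAs, where 1 passed against feeding, 146 passed with no filter on low counts, 42 in DESeq2, 5 in limma with voom weights, and 0 with only the 2 compared groups in the fit (124 at an unadjusted p under 0.05) or with the exon, intron and intergenic totals in the library size (258 unadjusted). Leaving out 1 library at a time gave 0 to 1, with 0 without 7-day replicate 2. Among known microRNAs alone, where 2 passed, 6 passed with library size as the one scaling, 1 with only the 2 compared groups and 11 in DESeq2, and leaving out 1 library gave 1 to 7, the highest without 7-day replicate 1. Between 7 and 3 days, where 0 passed over all small RNAs (181 unadjusted), 127 passed with no filter, 17 in DESeq2 and 11 in limma. The cause of these moves was not tested. The log2 difference of miR-7 turned from 0.79 to -0.036 without 7-day replicate 2, and ranged up to 1.1 when another library was left out. The difference in the share of known microRNAs, -17.17 percentage points, ran from -22.76 to -8.622 when 1 library was left out, and was -7.368 with named small RNAs as the denominator (exact permutation p = 0.1). Over its 15 alternatives miR-676-3p ranged from -3.27 to -2.33 on the log2 scale, with adjusted p from 1.13e-15 to 0.317, and passed in 12. No paired analysis was possible because the labels give no replicate numbers shared between groups.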

Other observations

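One predicted microRNA, listed as novel_mir2, held 474023 counts in 7-day replicate 1, which is 46.3% of its predicted microRNA counts and 1.72% of all its counts. In the other 11 libraries it held 0.0121% to 0.186% of all counts.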
